A study of Sus scrofa with 12 samples.

Results

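Open chromatin was examined around the genes of the myogenic regulatory factors MYOD1, MYF5, MYF6 and MYOG in longissimus dorsi, a back muscle, of boars of the Duroc and the Luchuan breed. Peak intervals of the deposited ATAC-seq table were taken when their midpoint lay in 1 of 3 windows of the Sscrofa11.1 genome. These windows ran on chromosome 2 from 41372522 to 41474236 around MYOD1, on chromosome 5 from 100603440 to 100904771 around MYF5 and MYF6, and on chromosome 9 from 113733233 to 113835312 around MYOG. They held 151 of the 217213 intervals in the table. After overlapping or adjoining intervals called in both breeds were merged, they held 86 of 140081 regions, with 25 in the MYOD1 window, 39 in the MYF5 and MYF6 window and 22 in the MYOG window. No member was left out for low counts.

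ATAC-seq inserts sequencing adapters with a transposase where DNA is accessible, so that reads collect in open chromatin. The study sampled 3 Duroc boars, a lean breed, and 3 Luchuan boars, a fat Chinese breed, all 180 days old, kept alike and without food overnight before death. No treatment or transgene was used, and the groups differed in breed alone by their labels. The table gives 1 read count per breed and interval and no count per boar, so each value below is a single pooled count without a spread between animals, and no test between breeds was possible. Breed cannot be told apart from library or depth, and the assembly to which all reads were aligned is that of a Duroc animal, whose effect on Luchuan counts was not tested. The mRNA samples of the series were not analysed here.

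The 4 factors are basic helix-loop-helix proteins that pair with E proteins, bind E-box sequences and switch on the muscle program. MYF5 and MYOD1 act early and commit precursor cells to the muscle lineage. MYOG drives the differentiation of myoblasts into fibers, and MYF6, also named MRF4, is the member that stays most abundant in adult fibers. In mammals, MYF6 lies next to MYF5, and control elements of the pair are spread far upstream, toward and into PTPRQ. MYOD1 is known to be controlled by a distal regulatory region and, farther upstream, a core enhancer. The short sequence before MYOG is known to carry much of its control. The annotation used here gives no strand, exons or untranslated parts, so both ends of a gene are treated alike and regions are placed by their distance in bases. By gene order in other mammals, the upstream side faces OTOG for MYOD1, PTPRQ for MYF5 and MYF6, and ADORA1 for MYOG, which is the side of higher coordinates at all of these loci.

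Reads are given as deposited. For the comparison of breeds, Luchuan counts were multiplied by 1.48, the median ratio of Duroc to Luchuan counts over the 68776 regions called in both breeds. The log2 ratio is that of Luchuan to Duroc with 1 added to each count, so that values above 0 are higher in Luchuan. The range in brackets after a log2 ratio is the 95% Clopper-Pearson interval of the Luchuan share of the reads, moved to this scale. It covers counting error only, since reads are not independent molecules and boars are not separate. A region was called higher in 1 breed when its log2 ratio reached 1 in size, which is a 2-fold difference.

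The regions over MYOG and MYF6 held some of the highest read counts in the muscle of both breeds, MYOD1 had 3 regions in its body, and MYF5 had none. At the genes themselves the breeds differed little. The reads of all regions within 2 kb of a gene gave log2 ratios of 0.04 for MYOD1 (-0.07 to 0.15), 0.10 for MYF6 (0.00 to 0.19) and -0.09 for MYOG (-0.20 to 0.02). For MYF5 the only such region gave 0.50 (0.01 to 0.99). That region was called in Luchuan alone, and such a call itself selects for values above 0. None of the 11 regions within 2 kb of the 4 genes was called higher in a breed. Each had 100 or more reads, and of all regions with that many 1.41% were called higher in Luchuan and 4.74% in Duroc, so that a count of 0 among 11 lies near the background.

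MYOG, the differentiation factor, lies on chromosome 9 from 113783233 to 113785312. A single region covered most of it and its higher-coordinate end, from 113783902 to 113785967, and this region was 2066 bases wide. It held 1701 Duroc reads and 1084 Luchuan reads, and ranked 67 of 140081 regions by the reads of both breeds. Few regions were as wide, and per kb it exceeded 96.8% of all regions in Duroc and 95.2% in Luchuan. Its borders depended on the breed in which it was called. The Luchuan libraries gave this 1 interval, and the Duroc libraries gave a pair of intervals. The smaller of the pair, from 113783902 to 113784173, held 197 Duroc and 130 Luchuan reads. The larger, from 113784504 to 113785900, held 1282 Duroc and 805 Luchuan reads. Neither part nor the whole approached a 2-fold difference.

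MYF6, the factor of adult fibers, lies on chromosome 5 from 100762918 to 100764771. Its strongest region ran from 100764233 to 100765673 over the higher-coordinate end, and held 1485 Duroc and 1085 Luchuan reads, rank 133 of 140081. Per kb it exceeded 99.7% of all regions in either breed. The log2 ratio was 0.11 (-0.01 to 0.22). Another pair of regions lay inside the gene. The region from 100763243 to 100763488 was called in Luchuan alone and held 184 Duroc and 139 Luchuan reads, a log2 ratio of 0.16 (-0.17 to 0.48). It was thus a Luchuan-specific peak with much signal in Duroc. The region from 100763591 to 100763804 held 198 and 130 reads with a log2 ratio of -0.05 (-0.38 to 0.28). The last region, from 100761524 to 100761925 between MYF5 and MYF6, held 334 and 240 reads with a log2 ratio of 0.08 (-0.16 to 0.33). The counting intervals of these 4 regions all included 0.

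MYF5, the early commitment factor, lies on chromosome 5 from 100753440 to 100755558. No region had its midpoint in this gene. Among the 3766 protein-coding genes of 5 kb or less, 66.1% had none either. The nearest region, from 100756334 to 100756520, lay 0.776 kb beyond its higher-coordinate end, and was called in Luchuan alone. It held 73 Duroc and 70 Luchuan reads, 143 in all against 2570 over the end of MYF6. The next region on that side, from 100757962 to 100758280, held 224 Duroc and 126 Luchuan reads, and its log2 ratio of -0.27 (-0.60 to 0.05) had the opposite sign. On the other side the nearest region was 11.4 kb away. MYF5 was therefore the member with the least accessible chromatin at the gene in both breeds.

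MYOD1, the determination factor, spans 41422522 to 41424236 of chromosome 2. In its body or within 2 kb were 5 regions. The strongest, from 41424124 to 41425094 over the higher-coordinate end, held 929 Duroc and 626 Luchuan reads, with a log2 ratio of -0.01 (-0.16 to 0.14). The region from 41423391 to 41423857 inside the gene held 328 and 263 reads, with a log2 ratio of 0.24 (0.00 to 0.48). Between them, the region from 41423883 to 41424084 was called in Duroc alone and held 142 Duroc and 81 Luchuan reads, with a log2 ratio of -0.25 (-0.66 to 0.16). The weakest regions, from 41423003 to 41423183 and from 41422036 to 41422220, held 92 and 84 Duroc reads and 66 and 61 Luchuan reads. The last of these lay 0.302 kb below the gene and was the only region within 2 kb on that side. The counts of this gene were thus highest over its OTOG end in both breeds.

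For levels between genes, reads were divided by the width of the regions within 2 kb. Duroc had 956 reads per kb of region at MYF6, 823 at MYOG, 785 at MYOD1 and 390 at MYF5. The scaled Luchuan levels were 1021 reads per kb at MYF6, 807 at MYOD1, 774 at MYOG and 552 at MYF5. MYF6 was highest and MYF5 lowest in both breeds, while MYOD1 and MYOG changed places, so their order cannot be read from these pooled libraries. Over all 140081 regions these levels were 417 in Duroc and 408 in Luchuan.

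**Figure D1:**
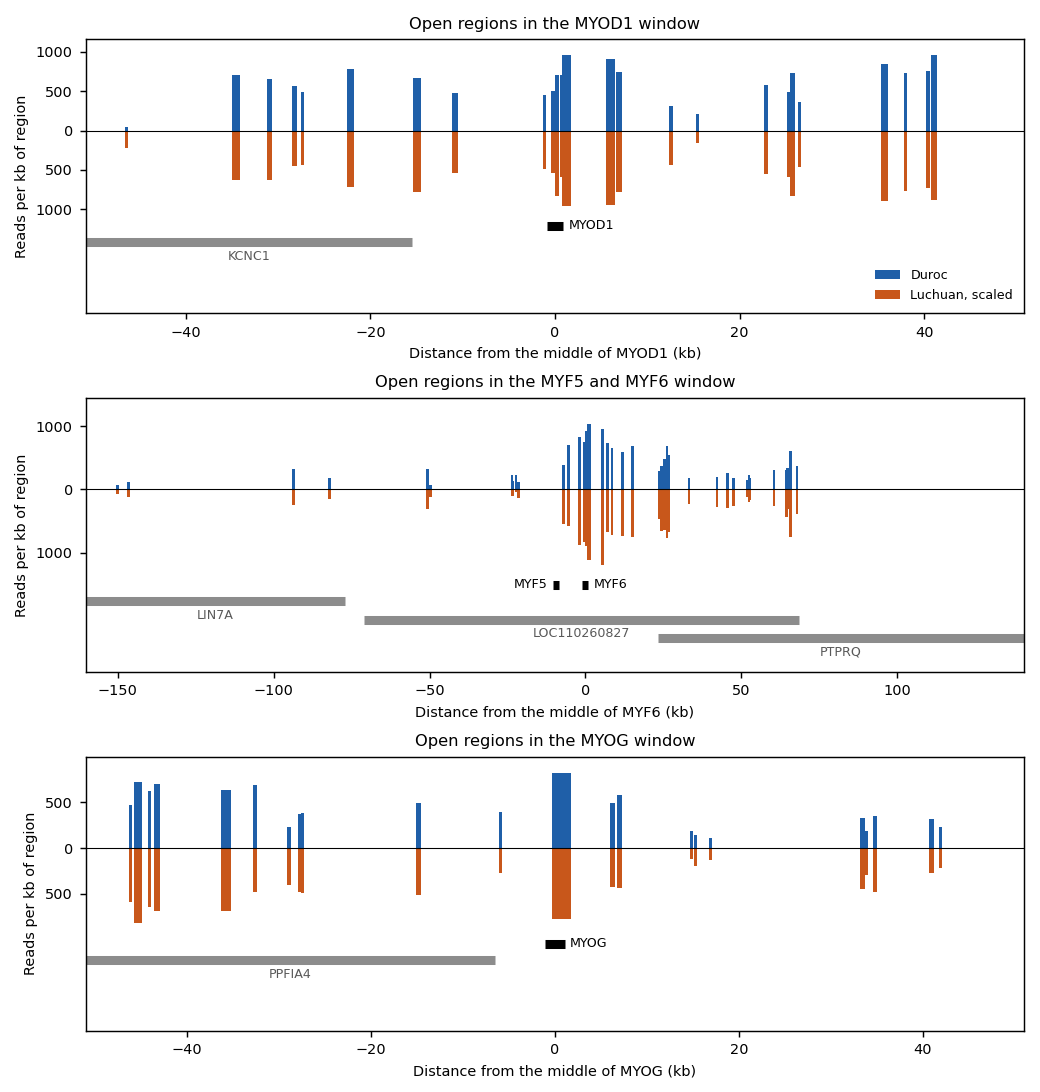
Reads per kb of region (vertical axis) at each region of the 3 windows, for Duroc above the line and scaled Luchuan below it, against the distance in kb from the middle of MYOD1, MYF6 or MYOG; the narrowest bars are drawn wider than the region, and bars under each plot mark protein-coding genes. The breeds mirror each other, regions crowd around MYF6 and on its PTPRQ side, and MYF5 has 390 Duroc reads per kb in its only near region against 956 at MYF6.

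The flanks of the genes were also rich in open chromatin. The windows held 24.6 regions per 100 kb around MYOD1, 21.6 around MYOG and 12.9 around MYF5 and MYF6, against 5.75 per 100 kb over the genome. The genome value includes stretches without genes, and windows around other genes were not counted for comparison. The MYF5 and MYF6 window was the widest, and within 50 kb of that pair its density was 24.3 per 100 kb. Of the 86 regions, 68.6% were called in both breeds, against 49.1% of all regions. The share called in Duroc alone was 12.8%, against 31.8% of all regions. The share called in Luchuan alone was 18.6%, close to the 19.1% of all regions. Of the members, 75.6% had 100 or more reads, while 70042 of the 140081 regions did. At that depth 55 of the 65 members and 58007 of the 70042 regions were called in both breeds, which are similar shares.

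Outside MYOD1, accessible chromatin was spread over both sides. The strongest distal region, from 41428872 to 41429846, lay 4.64 kb from the gene on the OTOG side and held 884 Duroc and 623 Luchuan reads, nearly as many as the gene's own end. Its log2 ratio was 0.06 (-0.09 to 0.21). Next to it, the region from 41429989 to 41430592 held 448 and 318 reads, with a log2 ratio of 0.07 (-0.15 to 0.28). A group of 4 regions followed on the same side, between 21.7 and 25.5 kb from the gene. In it the region from 41448873 to 41449413 held the most reads, 393 in Duroc and 304 in Luchuan, and its log2 ratio was 0.19 (-0.03 to 0.41). Farther out, the region from 41458691 to 41459500 held 688 and 492 reads with a log2 ratio of 0.08 (-0.09 to 0.25). Whether any of these regions is the pig counterpart of the known distal regulatory region or core enhancer was not tested, since no genome sequence was used here.

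On the other side of MYOD1, 6 regions lay inside KCNC1, which encodes a voltage-gated potassium channel. The region from 41400840 to 41401655 held the most reads there, 640 in Duroc and 399 in Luchuan, with a log2 ratio of -0.12 (-0.30 to 0.06). The weakest, from 41376758 to 41376907, was called in Luchuan alone and held 7 Duroc and 22 Luchuan reads. Its log2 ratio was 2.06 (0.94 to 3.68), the only value of the windows called higher in Luchuan. A peak call in Luchuan alone itself selects for values above 0. Of the 12 distal regions on the OTOG side the median log2 ratio was 0.06, and of the 8 on the KCNC1 side it was -0.10.

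On chromosome 5 the open regions lay mostly to the PTPRQ side of MYF6. This side had 23 distal regions with 3477 Duroc and 2800 Luchuan reads, while the 10 regions below MYF5 had 620 and 334. A row of 5 regions came before PTPRQ, between 4.20 and 13.7 kb from MYF6. Its strongest member, from 100768969 to 100769442, held 452 Duroc and 383 Luchuan reads, with a log2 ratio of 0.32 (0.12 to 0.52). Another 18 regions lay inside PTPRQ, which encodes a receptor-type phosphatase. This gene runs on to 101081145, past the end of the window, so only part of it was examined. There the regions from 100788937 to 100789530 and from 100790089 to 100790622 held the most reads, with 289 and 293 in Duroc and 256 and 245 in Luchuan. Their log2 ratios were 0.39 (0.14 to 0.63) and 0.30 (0.05 to 0.55). These regions, and MYF5 and MYF6 themselves, also lie inside LOC110260827, a protein-coding locus of the annotation. No region was found in the last 73.0 kb of the window, from 100831735 to 100904771.

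The regions inside the examined part of PTPRQ leaned toward Luchuan. Their log2 ratios had a median of 0.31 and were above 0 in 13 of 18 regions. The sum of their reads, 2052 in Duroc and 1697 in Luchuan, gave 0.29 (0.19 to 0.38). Without the peaks called in 1 breed alone, the 11 regions called in both breeds had a median of 0.30 and were above 0 in 9 cases. None reached 1. The largest value, 0.82 (0.31 to 1.36), belonged to the region from 100787786 to 100787943 with 58 Duroc and 70 Luchuan reads. Its neighbour from 100788077 to 100788350 held 89 and 97 reads and had a log2 ratio of 0.68 (0.26 to 1.12). Both were called in Luchuan alone, and such a call itself selects for values above 0. The 16 members called in Luchuan alone had a median of 0.35, and the 11 called in Duroc alone had -0.25. The group inside PTPRQ was put together after its values had been seen. With the counts scaled by the total clean reads of each breed in place of the common regions, the log2 ratios of the 86 members fell by 0.17 to 0.20. The median of all regions also fell, from -0.02 to -0.21. The PTPRQ median was then 0.12, with 11 of the 18 regions above 0. The counting interval lay above 0 in 2 of them, in place of 7, and the summed reads gave 0.09 with an interval that reached 0 (-0.0016 to 0.19).

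On the opposite side, below MYF5, the 10 regions were few and weak, and both values called higher in Duroc lay there. The region from 100741180 to 100741426 held 58 Duroc reads and 6 Luchuan reads, a log2 ratio of -2.58 (-4.22 to -1.50). The region from 100739855 to 100740102, 13.3 kb from MYF5, held 56 Duroc and 16 Luchuan reads, a log2 ratio of -1.21 (-2.15 to -0.42). Both were called in Duroc alone, and such a call itself selects for values below 0. Each had a neighbour called in Luchuan alone. These neighbours, from 100740136 to 100740294 and from 100741917 to 100742066, held 22 and 17 Duroc reads and 11 and 14 Luchuan reads, with log2 ratios of -0.42 and 0.27, and both intervals included 0. Among the 32214 regions of the genome with 50 to 100 reads, the value of -2.58 stood at the 0.25th percentile and that of -1.21 at the 4.29th percentile. That set also holds regions called in both breeds or in Luchuan alone. These percentiles therefore do not show how rare such values are among regions called in Duroc alone.

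Around MYOG, 10 regions lay inside PPFIA4, which encodes a liprin scaffold protein. The strongest, from 113747935 to 113749036, lay 34.2 kb from MYOG and held 706 Duroc and 515 Luchuan reads, with a log2 ratio of 0.11 (-0.06 to 0.27). The region from 113738556 to 113739401 held 614 and 467 reads with a log2 ratio of 0.17 (-0.01 to 0.34), and the region from 113740636 to 113741366 held 512 and 339 with -0.03 (-0.24 to 0.17). Neighbours in PPFIA4 could differ in direction. The region from 113751396 to 113751904 held 352 Duroc and 166 Luchuan reads, a log2 ratio of -0.52 (-0.80 to -0.25). The region from 113755131 to 113755540, called in Luchuan alone, held 95 and 111 reads, a log2 ratio of 0.78 (0.38 to 1.20). Such a call itself selects for values above 0.

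On the ADORA1 side of MYOG a pair of regions stood 4.98 and 5.68 kb from the gene and both had values below 0. The farther of them, from 113790987 to 113791593, held 354 Duroc and 177 Luchuan reads, a log2 ratio of -0.44 (-0.71 to -0.17), and the nearer held 228 and 133 reads, with -0.22 (-0.54 to 0.10). Farther out, 32.2 to 33.5 kb from the gene, 3 regions had values above 0. Those from 113817475 to 113817955 and from 113818857 to 113819270 held 159 and 146 Duroc reads and 145 and 134 Luchuan reads, and had log2 ratios of 0.43 (0.09 to 0.76) and 0.44 (0.09 to 0.79). The third, weaker region gave 0.59 (-0.18 to 1.40). Of all 10 distal regions on the ADORA1 side, 5 were above 0 and 5 below. Their summed reads gave -0.04 (-0.17 to 0.09).

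**Figure D2:**
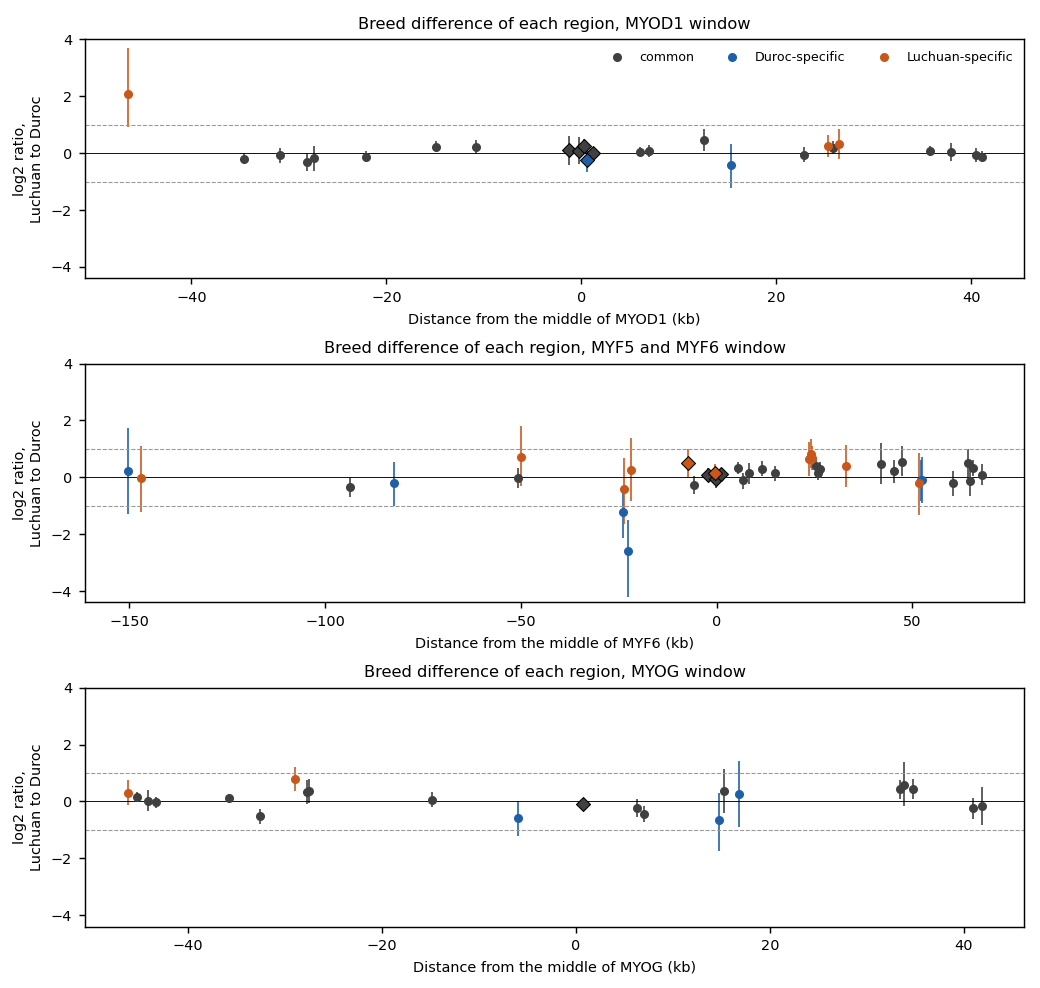
The log2 ratio of Luchuan to Duroc (vertical axis) of each of the 86 regions against its distance in kb from the middle of MYOD1, MYF6 or MYOG, with vertical lines for the 95% counting interval, diamonds for the 11 regions within 2 kb of a member gene and dashed lines at -1 and 1. Of the 3 points beyond the dashed lines, 1 is at 2.06 in the MYOD1 window and those at -1.21 and -2.58 lie below MYF5.

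Over the 86 regions, 1 was called higher in Luchuan, or 1.16%, against 7.11% of all regions. In Duroc 2 were called higher, or 2.33%, against 5.7% of all regions. All 3 had fewer than 100 reads. Among the 65 members with 100 or more reads none was called, and the background there was 1.41% for Luchuan and 4.74% for Duroc. The largest difference among these 65 was 0.82 in size, and among the 39 members with 300 or more reads it was 0.52. The median log2 ratio of the members was 0.09, with an interquartile range of -0.12 to 0.32, and 51 of 86 were above 0. Over all regions the median was -0.02 with a range of -0.35 to 0.31.

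The counting interval lay above 0 for 17 members, or 19.8%, and below 0 for 6, or 6.98%. Over all regions it lay above 0 in 13.4% and below 0 in 15.7%. These counts depended on the scaling. With the clean reads of each breed, 4 members had an interval above 0 and 19 below, and the median of the members became -0.11 beside -0.21 for all regions. The sign of a small log2 ratio therefore depended on the scaling. More nuclei of a cell type and more open chromatin per nucleus cannot be told apart in such bulk tissue.

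The spread of log2 ratios depended on depth, so members were also set beside all regions of like depth. From 5th to 95th percentile, all regions with 100 to 300 reads ran from -1.15 to 0.70, those with 300 to 1000 from -0.74 to 0.44, and those with 1000 or more from -0.27 to 0.29. All 30 members with 300 to 1000 reads and all 9 with 1000 or more lay inside these ranges. Of the 26 members with 100 to 300 reads 2 lay above, 1 inside PTPRQ and 1 inside PPFIA4. Their median was 0.24, against -0.12 for the 38244 regions of this depth.

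**Figure D3:**
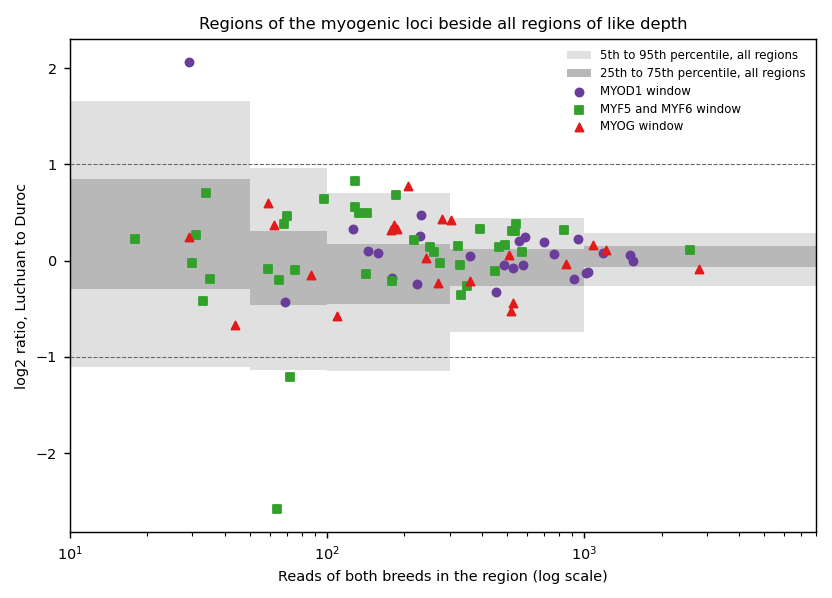
The log2 ratio of Luchuan to Duroc (vertical axis) of the 86 members against the reads of both breeds in the region (log scale), with grey bands for the 5th to 95th and 25th to 75th percentile of all regions in 5 classes of depth. Members with many reads sit near 0, and only 3 of the 86 points lie beyond the dashed lines at -1 and 1.

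Regions at the genes held more reads per kb than distal regions, while their median breed differences were nearly equal. The 11 regions within 2 kb of a member gene had 846 Duroc reads and 865 scaled Luchuan reads per kb. The 75 distal regions had 529 and 553. The median log2 ratio was 0.08 at the genes and 0.09 in distal regions. The difference of these medians, gene minus distal, was -0.0063, and the log2 ratios of the summed reads were 0.03 (-0.03 to 0.09) and 0.06 (0.03 to 0.10). At the genes the log2 ratios had an interquartile range of -0.03 to 0.13, and in distal regions of -0.14 to 0.33. Distal regions had fewer reads, down to 18 against at least 143 at the genes. By window, the medians at the gene and outside it were 0.08 and 0.05 for MYOD1, 0.11 and 0.15 for MYF5 and MYF6, and -0.09 and 0.11 for MYOG, where the gene had 1 region.

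Strong open chromatin was not limited to the genes. Of the 9 members with 1000 or more reads, 3 lay at a gene and 6 were distal. Of the 65 members more than 10 kb from a member gene, 16 had 500 or more reads, and 14.5% of all regions reached that number.

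The partners, inhibitors, upstream factors and targets of the myogenic factors were examined for comparison. Of the 25 genes listed, 24 were found in the annotation, and MYMX was not analysed here. They had 248 regions in their bodies or within 2 kb. Of these, 7 were called higher in Luchuan, or 2.82%, and 15 in Duroc, or 6.05%, beside the background of 7.11% and 5.7%. Among the 120 regions with 100 or more reads these numbers were 1 and 3. The median log2 ratio was -0.02, the same as over all regions.

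The E proteins TCF3, TCF4 and TCF12, the dimer partners of the myogenic factors, had 139 regions. At TCF4, 2 of 61 regions were called higher in Luchuan and 1 in Duroc, each with fewer than 100 reads. At TCF12, 11 of 75 regions were called higher in Duroc and none in Luchuan. The strongest of these, from 115057380 to 115057731 on chromosome 1, held 197 Duroc and 56 Luchuan reads, a log2 ratio of -1.24 (-1.71 to -0.82), and the other 10 had fewer than 100 reads. The median TCF12 region held 48 reads, and 41 of the 75 were called as peaks in Duroc alone. Of all regions with fewer than 50 reads, 26.4% passed the 2-fold limit in either direction, and of those with 50 to 100 reads 11.4%. These shares count both directions, while the TCF12 calls were all toward Duroc. The 5th percentiles of these classes were -1.11 and -1.14, and 5.7% of all regions were called higher in Duroc. The most accessible TCF12 region held 1188 and 822 reads and had a log2 ratio of 0.03. The inhibitors, among them the ID proteins that capture E proteins, had 26 regions and none was called. HES1, a repressor in the Notch pathway, and TWIST2 had the most regions of this role, 5 each, with median log2 ratios of -0.20 and -0.26. Over all 26 regions of the role the median was 0.17 and 17 were above 0. ID4 had the region with the most reads, 1073 in Duroc and 815 in Luchuan, and its log2 ratio was 0.16.

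Among upstream factors, the 8 regions of PAX3, a factor of embryonic muscle precursors, were all above 0, and their summed reads, 835 in Duroc and 823 in Luchuan, gave a log2 ratio of 0.54 (0.40 to 0.68). Called higher in Luchuan were 2 of them. The region from 124111841 to 124112152 on chromosome 15 held 40 Duroc and 64 Luchuan reads with a log2 ratio of 1.22 (0.65 to 1.85), and the other held 10 and 22 reads with 1.61 (0.56 to 2.94). PAX7, the factor of satellite cells, gave -0.21 (-0.31 to -0.12) over 16 regions, and 1 of them with 39 reads was called higher in Duroc. EYA1, a transcriptional cofactor, had 21 regions, the most of this role, and 3 were called higher in Luchuan, each with fewer than 100 reads. Beside these few calls per gene, 7.11% of all regions were called higher in Luchuan and 5.7% in Duroc.

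Among the targets, CKM, the creatine kinase of muscle, had 9 regions, all below 0, with 5365 Duroc and 2624 Luchuan reads, a log2 ratio of -0.47 (-0.54 to -0.40). The regions from 51703708 to 51703965 and from 51709193 to 51709433 on chromosome 6 were called higher in Duroc, with 245 and 190 Duroc reads and 78 and 61 Luchuan reads. All 9 had 100 or more reads, and of all regions with that many 4.74% were called higher in Duroc. The acetylcholine receptor genes CHRNA1, CHRND and CHRNG had 8 regions between them and none was called. DES, which encodes the intermediate filament desmin, gave -0.04 (-0.13 to 0.05) over 6 regions.

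**Figure D4:**
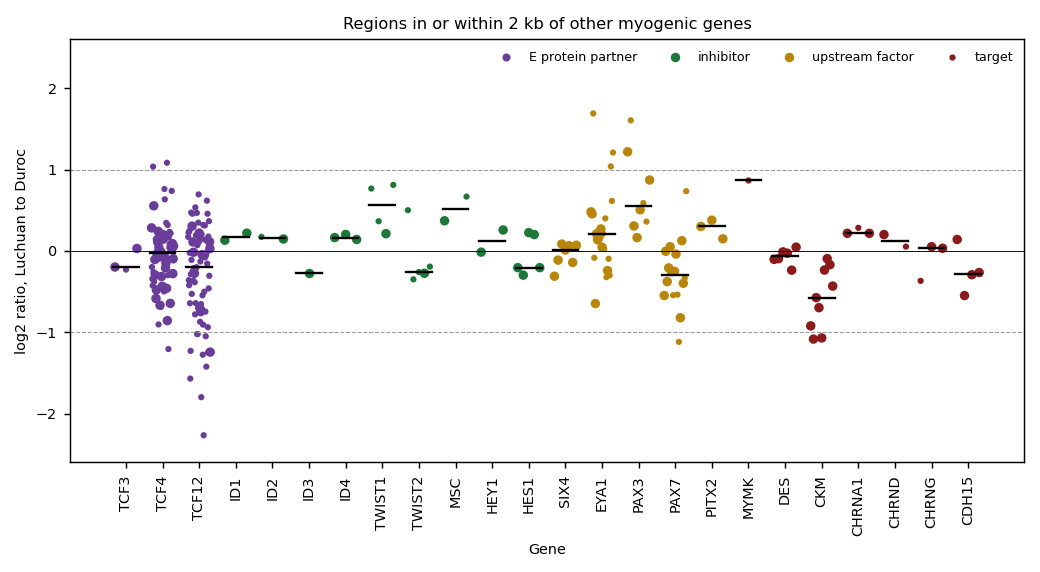
The log2 ratio of Luchuan to Duroc (vertical axis) of each region in or within 2 kb of 24 other myogenic genes, coloured by role, with large points for 100 or more reads, small points for fewer, a black line at the median of a gene and dashed lines at -1 and 1. TCF4, TCF12, PAX7 and CKM have points below -1, and TCF4, EYA1 and PAX3 have points above 1.

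The tissue was checked with marker genes. The 8 fiber markers, such as ACTA1 and TNNT3, had 128 regions with 835 Duroc reads and 698 scaled Luchuan reads per kb. The 18 markers of satellite cells, adipocytes, endothelium, leukocytes, Schwann cells and other organs had 54 regions, at 369 Duroc reads per kb or fewer in each list. Of these genes 5 had none, namely VCAM1, FABP4, CDH5, SOX10 and ALB. The fiber markers were lower in Luchuan, with 113 of 128 log2 ratios below 0, a median of -0.30 and summed reads that gave -0.26 (-0.28 to -0.24). Of these 128 regions RYR1 had 48 and MYBPC1 37. The region with the most reads gave 0.07 at ACTA1, 0.07 at RYR1, 0.08 at MYBPC1 and -0.01 at DES. It gave -0.07 at CASQ1, -0.09 at CKM, -0.33 at TNNT3 and -0.33 at TNNI2. The satellite cell list gave -0.30 (-0.38 to -0.22). The other lists had 5 to 8 regions each or none, and their summed reads gave 0.01 (-0.29 to 0.31) for adipocytes, -0.05 (-0.23 to 0.14) for endothelium, 0.03 (-0.18 to 0.23) for leukocytes and -0.06 (-0.33 to 0.20) for other organs. Their median log2 ratios were above 0, at 0.30, 0.45, 0.15 and 0.02. The median region of these lists held 45, 41, 57.5 and 38 reads, against 291.5 in the fiber list. Over all regions the median log2 ratio was 0.25 below 50 reads, -0.07 at 50 to 100 and -0.12 at 100 to 300. CKM, DES and PAX7 stand both among these markers and among the myogenic genes above. The members of the myogenic windows had a median of 0.09, and the part of tissue composition in either value was not tested. Over all intervals the table held 36568206 Duroc and 24532756 Luchuan reads.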

How the data were processed

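Per the labels and the study's methods, the tools were Trimmomatic 0.36 for filtering, Bowtie2 for alignment to the Sscrofa11.1 genome and MACS2 for peaks. Removal of duplicates, the transposase shift and the pooling of replicates are not given in the sources used here. The deposited values are unscaled whole-number counts of reads in each interval, 1 for each breed. The authors also deposited log2 values of fold change and mean signal and a p-value, which were not used here.

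Starts were taken as counted from 0 and are given counted from 1. Intervals called in both breeds were merged where they overlapped or adjoined, and the longest represented each region. No filter was applied. The scalings by counts were fitted on all regions called in both breeds, while the clean-read scaling used the read totals of the study. The calculation was tested on simulated data. With 1 pooled count per breed there is no replicate check, and no count model was fitted. Genes came from 19550 protein-coding RefSeq genes. A few listed genes are not reported here. The members and gene lists were chosen with earlier results of these data known. Named by rule were the regions over or nearest to each gene, the 3 distal regions of each window with the most reads, any past the 2-fold limit with 100 or more reads, the listed genes holding such a region and the gene with the most regions of each role. The rule spoke of gene starts, but both ends were used for lack of strand. Other regions and genes, the 3 called members among them, were named after their values were seen. Alternatives covered scaling, merging, the pseudocount of 1, low counts and distances. Calculations used SciPy 1.17.1, pandas 2.3.3 and NumPy 2.4.6 under Python 3.11.15, with Matplotlib 3.10.9 for plots.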

Additional observations from a re-analysis of the deposited data

How the results depend on the processing

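No paired analysis was possible because the table holds 1 pooled count per breed and no replicate columns, which also prevented leaving out single boars. The numbers of members called, 1 higher in Luchuan and 2 in Duroc, did not change under the 7 alternatives of scaling, merging, pseudocount and low counts. The difference between the gene and distal medians, -0.0063, stayed between -0.05 and 0.02 under these and the 3 alternatives of distance, so its sign was not fixed. The median log2 ratio of the members was 0.12 when scaled by a line on the mean log2 count, and -0.11 when scaled by the clean reads of each breed. That scaling lowered the log2 ratios of the members by 0.17 to 0.20 by its construction and moved 8 of 18 named regions beyond their counting interval. The other 5 alternatives run for these regions moved none of them so far. For the other myogenic genes, the clean reads gave 4 regions higher in Luchuan, 22 in Duroc and a median of -0.21, beside 4.93% and 8.73% of all regions and a median of -0.21 over them. A pseudocount of 5 gave 3 regions higher in Luchuan. Regions whose nearest gene end was a listed gene within 10 kb, 119 in number, gave 1 region higher in Luchuan, 4 in Duroc, and their median log2 ratio was 0.030. Depth limits the 21 members with fewer than 100 reads most, including all 3 that were called.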
